A study of Mus musculus with 4 samples.

Results

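The olfactory receptor genes of mouse chromosome 2 were placed in the topologically associating domains (TADs) of AML12 cells, an immortalized mouse hepatocyte line, grown in 2D or in 3D. The genes were taken from the annotation, as every protein-coding gene of chromosome 2 whose symbol starts with Olfr in GENCODE release M21 (GRCm38, the build that mm10 names). This rule gave 294 genes, out of 21755 protein-coding genes on chromosomes 1 to 19 and X. A further 76 Olfr genes of chromosome 2 are annotated as pseudogenes or as polymorphic genes and were not counted as members. Contacts had been measured by in situ Hi-C in 4 samples, of which 2 came from dishes (2D) and 2 from cultures embedded in Matrigel (3D). Hydroxyurea at 1 mM was present in every culture to hold the cells at the G1/S boundary, during 24 h (2D) or 36 h (3D). AML12 is 1 cell line, and no tissue or animal groups were compared. Replicates were pooled ahead of the TAD calling, which left a single list for each culture, so no value below has a replicate error and no test between the cultures was possible. The lists give positions without read counts, and the depth behind a TAD is unknown.

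Olfactory receptors are G protein-coupled receptors with which olfactory sensory neurons bind odorants. Their genes form a very large gene family of the mouse, lie in tandem clusters on many chromosomes, and mostly have a single coding exon. Each sensory neuron expresses a single receptor from a single allele, and in that lineage the silent receptor genes are known to be packed in heterochromatin. Chromatin state was not analysed here. Whether any receptor was expressed in these cells was not analysed here.

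The 294 genes fell into 3 clusters, taken as runs of at least 5 members with at most 500 kb between neighbouring gene bodies, and no member lay apart from them. Cluster 1 held 28 members from Olfr338 to Olfr368 over 959 kb at chr2:36373519-37332772. Cluster 2 held 227 members from Olfr987 to Olfr1274-ps over 5073 kb at chr2:85330779-90403897. Cluster 3 held 39 members from Olfr1275 to Olfr1318 over 929 kb at chr2:111230360-112159157. Olfr1274-ps is annotated as protein-coding despite its symbol. Cluster 2 and cluster 3 were packed more densely, with 44.7 and 42.0 members per Mb, than cluster 1 with 29.2. The median distance between neighbouring bodies was 21.4 kb in cluster 1, 12.8 kb in cluster 2 and 13.7 kb in cluster 3.

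The widest space within a cluster was the 135.6 kb between Olfr995 and Olfr996 in cluster 2. In clusters 1 and 3 the widest were 102.0 kb between Olfr366 and Olfr368 and 85.2 kb between Olfr1299 and Olfr1301. At the other end, the bodies of Olfr1013 and Olfr1014 overlapped by 1.94 kb, Olfr357 and Olfr358 lay 0.315 kb apart and Olfr1280 and Olfr1281 lay 0.516 kb apart. Both strands were used in each cluster, with 20 members on the plus and 8 on the minus strand in cluster 1, 79 and 148 in cluster 2, and 17 and 22 in cluster 3. The strand changed between neighbours 14, 55 and 13 times, respectively. Other protein-coding genes were almost absent. Clusters 1 and 3 held none, and cluster 2 held 7, namely 4833423E24Rik, Gm13723, Pramel7, Pramel6, Gm13757, Gm13762 and Gm13769. Pramel6 and Pramel7 belong to the PRAME family of leucine-rich repeat proteins.

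In both cultures, 289 of the 294 gene starts lay in 3 TADs, 1 for each cluster. Cluster 1 filled a TAD of 1080 kb in 2D, at chr2:36280001-37360000, and of 1120 kb in 3D, at chr2:36240001-37360000. All 28 members started inside it in both lists. Cluster 3 lay in a TAD of 2040 kb in 2D, at chr2:110200001-112240000, and of 2000 kb in 3D, at chr2:110240001-112240000, again with all 39 members. Cluster 2 lay in a TAD of 5040 kb in 2D, at chr2:85120001-90160000, and of 4920 kb in 3D, at chr2:85240001-90160000. This TAD held 222 members, from Olfr987 to Olfr1270, and left out the last 5. The median of the 3 sizes came to 2040 kb (2D) and 2000 kb (3D), against a median TAD of chromosome 2 of 240 kb in both lists. No border fell within the body of a member in either list.

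**Figure D1:**
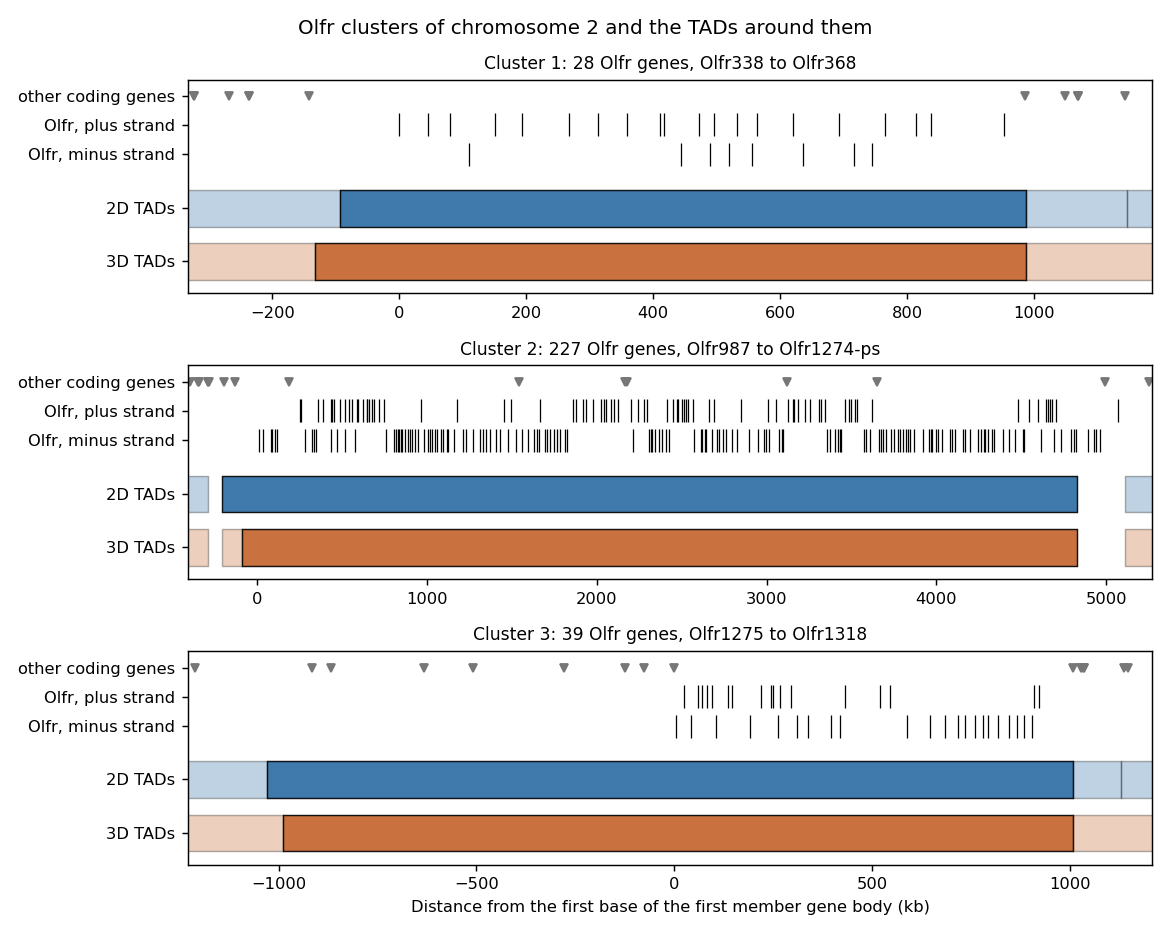
Map of the 3 clusters, with the distance in kb from the first base of the first member on the x axis. Vertical lines are member gene starts on either strand, triangles are starts of other protein-coding genes, dark bars are TADs that hold members and pale bars are other TADs of the 2D and 3D lists. Each cluster lies in 1 TAD per list, except that the last 5 members of cluster 2 lie in a space without a TAD.

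The TAD of cluster 2 was the largest of chromosome 2 in both lists, ranking 7 of 4467 TADs by size in 2D and 11 of 4355 in 3D. It was also the TAD with the most protein-coding gene starts in both lists, with 230 in 2D and 228 in 3D. The TAD of cluster 3 held 48 protein-coding starts and ranked 10 by gene number in both lists. The TAD of cluster 1 held 29 and ranked 27 in 2D. By size, the TADs of clusters 1 and 3 were less extreme, ranking 35 and 14 on chromosome 2 in 2D and 34 and 16 in 3D. In the scatter of TAD size against gene number, the TAD with the next most protein-coding starts held 109 in both lists.

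**Figure D2:**
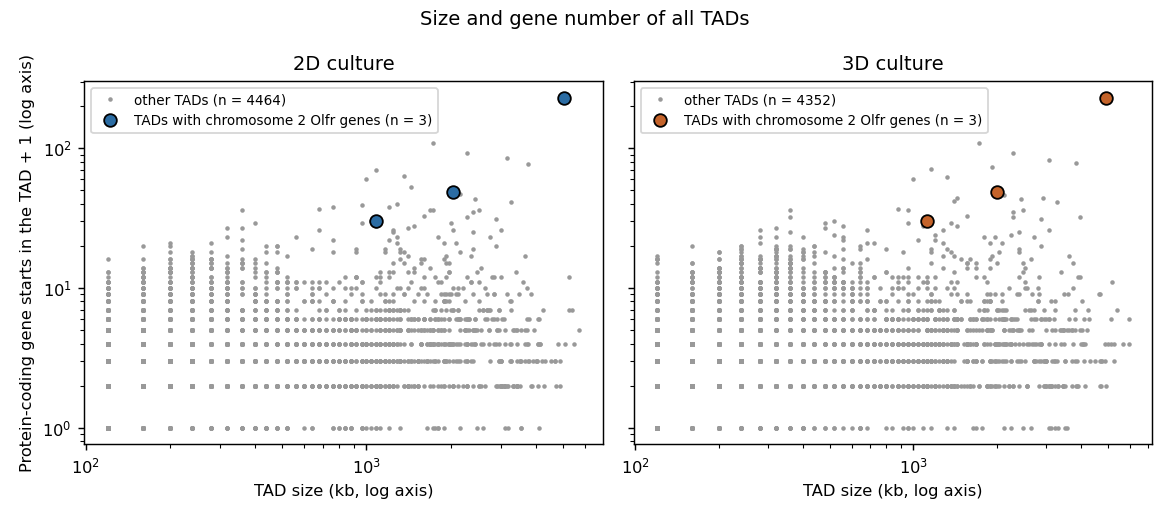
Size of every TAD in kb (log axis) against the number of protein-coding gene starts in it plus 1 (log axis), for the 2D list (4467 TADs, left) and the 3D list (4355 TADs, right). Large coloured points are the 3 TADs that hold chromosome 2 receptor genes, and that at the top right, with 230 starts in 2D and 228 in 3D, is that of cluster 2.

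The receptor genes filled their TADs to different extents. From the first to the last member in the TAD, they spanned 88.8% of the TAD of cluster 1 in 2D and 85.6% in 3D, and 95.7% and 98.0% of that of cluster 2. In cluster 3 they spanned 45.5% in 2D and 46.4% in 3D. The rest of the cluster 3 TAD was a stretch of about the length of the cluster on its left side, which held 8 other genes in both lists. These were Bbox1, which encodes the last enzyme of carnitine synthesis, Fibin, Slc5a12, a sodium-coupled lactate transporter, Ano3 of the anoctamin family, the mucin gene Muc15, Gm13941, Gm15130 and 4930430A15Rik. The ninth was Lpcat4, an acyltransferase of phospholipid remodelling, at the right end of the TAD. The cluster 1 TAD held a single other gene, Pdcl, a phosducin-like chaperone of G protein subunits. In 2D the cluster 2 TAD also took in Aplnr, the apelin receptor, and Lrrc55, an accessory subunit of potassium channels. In 3D both of these started instead in a separate TAD of 120 kb at chr2:85120001-85240000.

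The cultures thus differed in the TAD of cluster 2 by 3 bins at its left end and by none at its right end. The TADs of clusters 1 and 3 differed by 1 bin of 40 kb at the left end and by none at the right end. With a counterpart taken as a TAD with both ends within 40 kb, 2 of the 3 TADs had one, or 66.7% (95% Wilson interval 20.8 to 93.9%), and that of cluster 2 had none. Wilson intervals here and below cover counting error only. Among all TADs with a protein-coding gene start, 67.8% in 2D and 68.4% in 3D had a counterpart. With 3 TADs the interval holds both of these values and is too wide to tell whether the receptor TADs differ from them.

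The receptor genes started in large TADs and far from their borders. The 289 starts in a TAD of at least 1000 kb were 98.3% (96.1 to 99.3%) of the members in both lists, beside 19.5% of all protein-coding genes in 2D and 19.3% in 3D. Among the other 1549 protein-coding genes of chromosome 2 the share was 13.9% in 2D and 15.2% in 3D. The 841 receptor genes of other chromosomes lay between, at 66.2% in 2D and 69.0% in 3D. The size of 1000 kb was chosen after the TADs had been seen. The members are neighbours in 3 clusters and are not independent of each other. All intervals over members, here and below, are therefore narrower than the 3 clusters would warrant.

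Close to a border, receptor genes were rare. In both lists 4 of 294 members started within 40 kb of a border, or 1.36% (0.530 to 3.45%), beside 41.1% of all protein-coding genes in 2D and 38.7% in 3D. Among other genes of chromosome 2 this was 45.2% and 42.3%, and among receptor genes of other chromosomes 7.73% and 8.56%. For the members, the nearest border lay at a median distance of 985 kb (2D) and 939 kb (3D). It was 48.0 kb and 54.1 kb for the other genes of chromosome 2, and 303 kb in both lists for the receptor genes of other chromosomes.

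**Figure D3:**
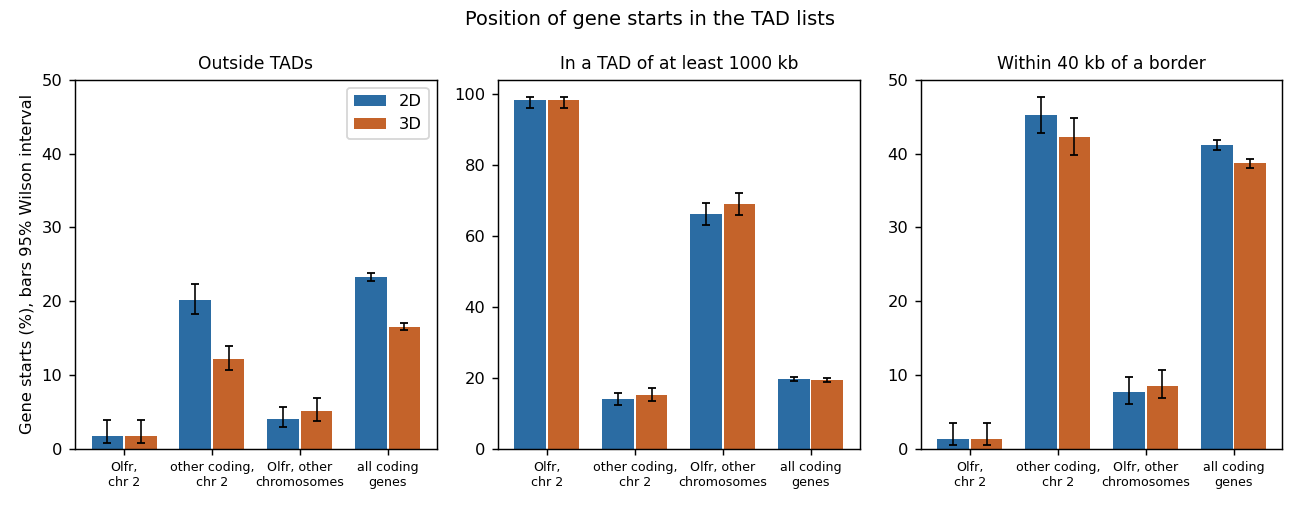
Share of gene starts in percent that lay outside TADs (left), in a TAD of at least 1000 kb (middle) and within 40 kb of a border (right), in 2D and 3D, for 4 gene sets. Bars are the shares and error bars their 95% Wilson intervals, which treat genes as independent although the receptor genes are clustered. The receptor genes of chromosome 2 have 98.3% of starts in a TAD of at least 1000 kb and 1.36% near a border, in both lists. The y axis of the middle panel runs to about 100% and those of the others to 50%.

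Neighbouring receptor genes shared a TAD in nearly all cases. Of 293 pairs of neighbouring members, 286 had both starts in 1 TAD in both lists, or 97.6%, beside 57.2% of neighbouring protein-coding genes in 2D and 64.2% in 3D. The same share was 58.5% and 67.4% among the other genes of chromosome 2, and 90.8% and 89.9% among receptor genes of other chromosomes. Pairs were consecutive genes of a set on a chromosome, at any distance. Of the 293 member pairs, 291 lay within a cluster. The 824 pairs of other chromosomes include those between 30 clusters and those of genes in no cluster. The shares of the 2 receptor sets are therefore not like for like.

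Within the clusters, the lists had a single border each, at the same position. This was the right end of the cluster 2 TAD between Olfr1270 and Olfr1506, and it amounts to 0.144 borders per Mb of cluster. Chromosome 2 as a whole had 2.43 borders per Mb in 2D and 2.18 in 3D. Counting also the 40 kb on either side of each cluster, each list had 3 borders, and all 3 were shared with the other list within 40 kb, or 100% (43.9 to 100%). Over all borders, 81.9% of those in 2D and 88.1% of those in 3D were shared. With 3 borders the interval holds both of these values. In a wider window of 400 kb on either side, chosen after the data had been seen, 9 of 11 borders in 2D were shared, or 81.8% (52.3 to 94.9%), and 9 of 10 in 3D, or 90% (59.6 to 98.2%). The borders without a partner were the TAD end at base 37520000 and that at base 112360000 in 2D, and the left end of the cluster 2 TAD in 3D.

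The cluster edges lay at very different distances from the nearest border. On the left of cluster 1, Olfr338 began 93.5 kb from the border in 2D and 133.5 kb from it in 3D. The next gene there was Ptgs1, which encodes cyclooxygenase 1, at a distance of 121 kb, so the 2D border fell between them and the 3D border fell within Ptgs1. On the right of cluster 1, Olfr368 ended 27.2 kb before the border in both lists, and this border lay just beyond the start of Pdcl, a minus-strand gene whose 3′ end was 17.3 kb from Olfr368.

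On the left of cluster 2, Olfr987 began 210.8 kb from the border in 2D and 90.8 kb from it in 3D. Lrrc55 lay 133.6 kb from Olfr987, so the border separated them in 3D and not in 2D. On the right of cluster 2, Olfr1274-ps ended 36.1 kb before a border in both lists, where the next TAD began. That border lay within Ptprj, a receptor-type tyrosine phosphatase whose body ends 25.9 kb from Olfr1274-ps. On the left of cluster 3, Olfr1275 lay 0.757 kb from 4930430A15Rik. The border on its left was 1030.4 kb away in 2D and 990.4 kb away in 3D, a difference of 1 bin. In 2D the nearest border was therefore the right end of the same TAD, 1009.6 kb away across the cluster. On the right of cluster 3, Olfr1318 ended 80.8 kb before the border in both lists, and Lpcat4 began 80.3 kb from Olfr1318, within 1 kb of that border.

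On all 3 left sides the outer border thus differed between the lists, by 1 bin at clusters 1 and 3 and by 3 bins at cluster 2, while on all 3 right sides it was the same. Over the 6 edges the median distance came to 87.2 kb (2D) and 85.8 kb (3D). In both lists, 2 of 6 edges lay within 40 kb of a border and 4 of 6 within 100 kb. Of 60 edges of receptor clusters on other chromosomes, described below, 33 in 2D (55%) and 29 in 3D (48.3%) lay within 100 kb. In each list a border fell between the outermost member and the next protein-coding gene at 1 edge, that of Olfr338 in 2D and that of Olfr987 in 3D. Annotated pseudogenes continued cluster 1 to the left as far as Olfr334-ps1, which began 5.02 kb from the border of the 2D list and 45.0 kb from that of the 3D list. With the pseudogenes included, which was tried after the data had been seen, the medians became 54.1 kb (2D) and 58.5 kb (3D).

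**Figure D4:**
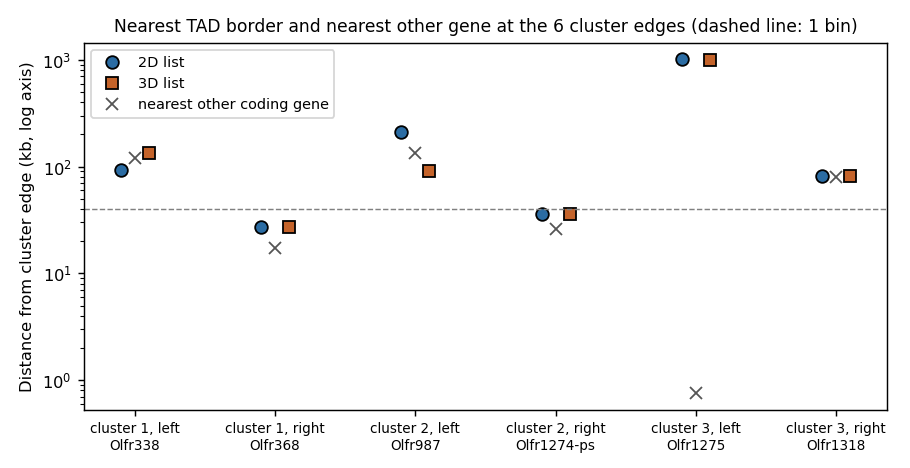
Distance in kb (log axis) from each of the 6 cluster edges to the nearest border of the 2D list (circles) and of the 3D list (squares), and to the nearest other protein-coding gene (crosses). The dashed line marks 40 kb, the size of 1 bin. The left edge of cluster 3 has the most distant borders, at 1009.6 kb (2D, to the right end of the TAD across the cluster) and 990.4 kb (3D, to its left end), and the closest other gene, at 0.757 kb.

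Outside TADs lay 5 members, or 1.70% (0.729 to 3.92%), the same 5 in both lists. These 5 are neighbours in 1 stretch, so the interval is narrower than 1 such stretch would warrant. Of all protein-coding genes, 23.3% in 2D and 16.5% in 3D started outside TADs. For the other genes of chromosome 2 the shares were 20.2% and 12.1%, and for receptor genes of other chromosomes 4.04% and 5.11%. The 5 members were Olfr1506, Olfr142, Olfr1271, Olfr1272 and Olfr1274-ps, the last of cluster 2, and Gm13769 lay with them. They shared 1 stretch of 280 kb, or 7 bins, at chr2:90160001-90440000, with the same ends in both lists. The part of it within the cluster measured 243.9 kb, or 4.81% of cluster 2 and 3.50% of the 3 clusters together. Chromosome 2 as a whole had 8.72% of its span outside TADs in 2D and 5.79% in 3D.

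This stretch consisted largely of sequence that occurs more than once on chromosome 2. Of its 279951 windows of 50 bases, 73.9% recurred exactly on the chromosome on either strand, and 70.6% had a copy within the stretch itself. In its 7 bins, from left to right, the recurring share was 91.4%, 99.5%, 46.8%, 31.8%, 100%, 91.6% and 55.9%. The high bins came in 2 groups, 1 near each end of the stretch, with the low bins between them. No base of the stretch was unknown in the reference.

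**Figure D5:**
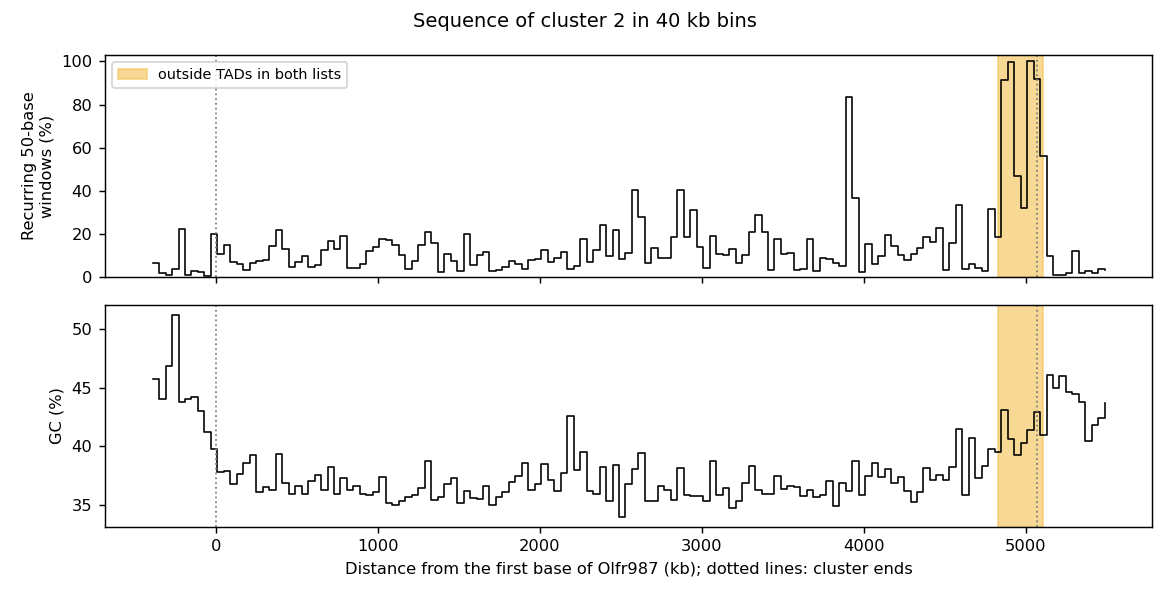
Share of 50-base windows that recur on chromosome 2 (top, percent) and GC content (bottom, percent) in 40 kb bins along cluster 2, against the distance in kb from the first base of Olfr987. Dotted lines are the ends of the cluster and the shaded span is the stretch outside TADs, where 5 of 7 bins have a recurring share above 50%. Each value is drawn from the centre of its bin to the centre of the next, so the curve is displaced to the right of the shading. A single further bin of the cluster, inside its TAD, reaches such a share, at 83.3%.

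The starts of Olfr1506 and Olfr1274-ps show this recurrence at the level of bases. The windows below run from 250 bases before to 50 bases after the GENCODE start, 5′ to 3′ on the gene's strand, read from GRCm38.p6. They are the most alike of the 10 pairs that the 5 genes form, and capitals mark the bases that differ from, or have no partner in, the other window.
Olfr1506, chr2:90224444-90224743, minus strand: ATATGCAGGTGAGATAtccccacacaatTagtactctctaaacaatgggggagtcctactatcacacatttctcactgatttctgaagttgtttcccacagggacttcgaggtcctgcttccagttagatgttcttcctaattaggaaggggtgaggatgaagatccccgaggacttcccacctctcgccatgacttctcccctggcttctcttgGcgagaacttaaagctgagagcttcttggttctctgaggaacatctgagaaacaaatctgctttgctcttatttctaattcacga
Olfr1274-ps, chr2:90398433-90398732, plus strand: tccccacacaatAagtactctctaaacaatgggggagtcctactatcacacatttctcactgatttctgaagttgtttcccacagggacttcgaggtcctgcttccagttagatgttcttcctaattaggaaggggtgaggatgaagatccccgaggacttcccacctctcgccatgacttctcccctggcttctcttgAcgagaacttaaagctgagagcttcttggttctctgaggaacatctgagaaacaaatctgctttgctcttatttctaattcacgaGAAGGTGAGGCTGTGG

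Olfr1506 and Olfr1274-ps lie 174.2 kb apart on opposite strands, near the ends of the stretch, yet 282 of 284 aligned bases of their windows were identical, with 2 mismatches and no gap. Alike neighbours also occurred inside the TADs. Among all 291 pairs of neighbours within a cluster, 8 had identical bases over at least 80% of the window, and the median was 53.3%. These 8 included a pair of the stretch outside TADs, Olfr142 and Olfr1271, with 91.3%. The most alike neighbours were Olfr1049 and Olfr1051, with 96.3%, both inside the cluster 2 TAD. Over whole gene bodies, the share of recurring windows was 100% in Olfr1506, 34.2% in Olfr1274-ps, 28.2% in Olfr142, 20.96% in Olfr1271 and 5.54% in Olfr1272. The median over the 289 members inside TADs was 2.96%, with a range from 0 to 62.0%.

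Recurring sequence and position outside TADs also went together on the rest of chromosome 2. Of 94 bins outside the clusters with a recurring share of at least 50%, 73.4% (63.7 to 81.3%) lay outside TADs in 2D and 72.3% (62.6 to 80.4%) in 3D. Of the 4190 bins below that share, 7.23% did so in 2D and 4.11% in 3D. Within the clusters, 4 of 5 bins above it and 2 of 169 below it lay outside TADs, in both lists. Bins were assigned by their centre, so the last bin of the stretch, with 55.9%, is among the 94 and not the 5. The division at 50% was chosen after the bins had been seen. The part of recurring sequence in the absence of a TAD at the end of cluster 2 was not tested.

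The clusters differed from the rest of the chromosome in base composition as well. Over the 174 bins of 40 kb in the clusters, GC content was 37.5 ± 1.70% (SD over bins), against 42.3 ± 4.25% over 4284 other bins of chromosome 2. Annotated repeats made up 50.3 ± 11.1% of the cluster bins and 31.4 ± 12.2% of the others. Sites for MboI, the restriction enzyme of the libraries, numbered 110.5 ± 17.2 per bin in the clusters and 98.5 ± 14.4 elsewhere. The median of the cluster bins exceeded 9.13% of the other bins in GC, 90.5% in repeats and 80.1% in MboI sites. Among the clusters, repeats were highest in cluster 1 at 60.4%, beside 47.8% in cluster 2 and 53.1% in cluster 3. The 6 cluster bins outside TADs had 41.3 ± 1.53% GC and 126.7 ± 14.5 MboI sites, against 37.3 ± 1.54% and 110.0 ± 17.0 in the 168 inside.

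A motif core of CTCF, the zinc finger protein that binds at many TAD borders, was searched as AGGGGGCGC on both strands, a choice made after the lists had been seen. It was present in 2 of 174 cluster bins, or 1.15%, and in 346 of 4284 other bins, or 8.08%. Of the 563 bins beside borders that both lists had on chromosome 2, 14.7% held it. Of the 18 bins on either side of the borders around and within the clusters, 1 held it, next to the right border of the cluster 3 TAD. The core consists mainly of G and C, and GC content was lower in the cluster bins, at 37.5% against 42.3% in the others. The part of base composition in these shares was not tested. A match is a run of letters and was not taken as a bound site.

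The promoters of the receptor genes were poor in GC and CpG. Windows around the GENCODE starts, as above, were taken for all 21755 protein-coding genes. The median GC content was 34.3% for the 294 members, 38.7% for receptor genes of other chromosomes, 56.7% for the other genes of chromosome 2 and 55% for all genes. Of the members, 113 had no CpG dinucleotide in the window, or 38.4%, beside 34.2% of receptor genes of other chromosomes, 1.61% of the other genes of chromosome 2 and 5.17% of all genes. Starts in the RefSeq promoter table, which matched 237 members by symbol, lay a median of 2613 bases from the GENCODE starts. They were the same for 20 of the 237 and at most 13045 bases apart. Windows at the RefSeq starts were for this reason not used for the motifs. Which start is in use was not tested, so the windows at the GENCODE starts may miss some promoters.

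Motifs of factors that act at olfactory receptor promoters were then counted on both strands. The homeodomain core TAATTA, of the kind bound by LHX2 and EMX2, was present in 33.3% of the member windows (28.2 to 38.9%) and in 5.22% of all windows. The core TAATGA was present in 38.1% (32.7 to 43.8%) against 9.52%, and the TATA box TATAAA in 45.2% (39.6 to 51.0%) against 12.7%. These 3 motifs consist mainly of A and T, in which the member windows are rich. The core TCCCNNGGG, bound by the EBF factors, was present in 8.16% (5.55 to 11.9%) of the member windows and in 7.79% of all windows. Receptor genes of other chromosomes held TAATTA in 20.9%, TAATGA in 35.1%, TATAAA in 29.3% and TCCCNNGGG in 12.0% of their windows. The motifs were counted one by one, and overlaps between them were not removed.

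The windows of 3 genes at cluster edges are shown as examples. Olfr987 is the first member of cluster 2 and held 3 matches, and Olfr1318 and Lpcat4 face each other at the right edge of cluster 3. Capitals mark matches to the 4 motifs on either strand.
Olfr987, chr2:85339266-85339565, minus strand: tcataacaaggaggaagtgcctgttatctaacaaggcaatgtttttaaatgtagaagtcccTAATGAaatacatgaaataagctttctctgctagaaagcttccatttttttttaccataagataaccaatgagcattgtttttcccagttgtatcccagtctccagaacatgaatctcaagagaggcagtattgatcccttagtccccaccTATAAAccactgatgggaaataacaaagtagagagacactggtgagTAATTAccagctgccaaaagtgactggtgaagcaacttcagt
Olfr1318, chr2:112153948-112154247, plus strand: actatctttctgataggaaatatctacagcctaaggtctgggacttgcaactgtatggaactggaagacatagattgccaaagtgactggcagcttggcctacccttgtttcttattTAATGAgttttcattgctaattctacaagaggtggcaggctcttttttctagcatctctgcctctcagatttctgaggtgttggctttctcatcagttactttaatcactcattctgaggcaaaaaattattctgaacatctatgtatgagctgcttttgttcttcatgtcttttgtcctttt
Lpcat4, chr2:112239218-112239517, plus strand: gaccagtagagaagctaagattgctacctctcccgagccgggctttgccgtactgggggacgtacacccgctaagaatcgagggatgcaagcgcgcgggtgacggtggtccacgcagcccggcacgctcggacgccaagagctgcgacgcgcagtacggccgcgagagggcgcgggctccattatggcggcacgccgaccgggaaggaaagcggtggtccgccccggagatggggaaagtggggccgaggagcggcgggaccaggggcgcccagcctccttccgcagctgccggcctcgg

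The Olfr987 window had 38.7% GC and no CpG, and the Olfr1318 window 39.0% GC and no CpG. The Lpcat4 window had 69.7% GC, 37 CpG dinucleotides and none of the motifs. Between the last member and Lpcat4, 80.3 kb held no other protein-coding gene. The contrast in GC and CpG varied between edges. Among the other neighbours, Ptprj had 76.7% GC and 37 CpG in its window, Lrrc55 51.7% and 2, Ptgs1 50.7% and 6, 4930430A15Rik 42.7% and 5, and Pdcl 40.0% and 16. Among the other outermost members, Olfr1274-ps had 46.7% GC and 5 CpG, Olfr368 43.7% and none, Olfr338 36.3% and none, and Olfr1275 36.0% and 1. At the right edge of cluster 1, GC was thus higher in the window of the member Olfr368 than in that of Pdcl.

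Receptor clusters were found on other chromosomes by the same rule. There were 30 such clusters with 798 members, of 5 to 129 members and 82.5 to 2893 kb each. In 21 of the 30 clusters, in 2D and in 3D, all members inside TADs lay in 1 TAD. In 2D the other 9 spread over several TADs, and in 3D 8 did so and 1 lay in none. Borders within these clusters numbered 1.33 per Mb in 2D and 1.12 in 3D, against 0.144 for the 3 clusters of chromosome 2. Restricted to the 9 clusters of at least 900 kb, a length chosen after the clusters had been seen, 5 in 2D and 6 in 3D lay in 1 TAD, and borders numbered 0.743 and 0.675 per Mb. Distances from the edges were similar, with a median of 76.7 kb in 2D and 104.8 kb in 3D over 60 edges. With 3 clusters on chromosome 2, none of these differences was tested.

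Genes of the olfactory pathway outside the receptor family were placed in the same way. The list held 23 genes and all matched the annotation. It comprised signalling components such as Gnal, the olfactory G protein alpha subunit, Adcy3, the adenylyl cyclase of the cilia, and Cnga2, a subunit of the cyclic nucleotide-gated channel, receptor transporters such as Rtp1, and regulators of receptor choice such as Lhx2, Ldb1 and Kdm1a. In 2D 19 started in TADs and 4 outside, namely Adcy3, Cngb1, Omp and Lbr. In 3D 22 started in TADs and Gnal outside. Their median TAD measured 440 kb in both lists, against a median over all protein-coding genes of 320 kb in both. In a TAD of at least 1000 kb lay 4 of the 23 in 2D and 6 in 3D. The shares over all protein-coding genes were 19.5% and 19.3% in such TADs, and 23.3% and 16.5% outside TADs. Of these genes, Lhx2 and Ebf4 are on chromosome 2. Lhx2 lay in a TAD of 600 kb in both lists, and Ebf4 in one of 160 kb in 2D and of 120 kb in 3D.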

How the data were processed

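The data were TAD lists from in situ Hi-C of AML12 cells in 2D and 3D culture, 2 replicates each. Per the paper's methods and the labels, reads were aligned by the authors to mm10 (Bowtie 2, version 2.2.9), pairs below a minimum mapping quality at either end were dropped, and the authors combined the replicates, normalized 40 kb matrices with ICE, set chromosomes to equal depth in both cultures and called TADs with Armatus. The deposited lists hold chromosome, start and end on a 40 kb grid, a unit of another kind than counts. Genes came from GENCODE M21 and sequence from GRCm38.p6.

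A gene was placed by its transcription start. A border was a distinct TAD start or end, shared when the other list had one within 40 kb. Coordinates are 1-based. Values were computed in Python 3.11.15 with numpy 2.4.6, pandas 2.3.3, scipy 1.17.1 and Biopython 1.88, and the measures were tested on simulated lists. Shares carry 95% Wilson intervals, and no p-value was computed, since genes and borders are not replicates of a culture. Windows were aligned globally with free end gaps. Genes to be named were the outermost members and their neighbours, members outside TADs, other genes within clusters, and neighbours with extreme spacing; other genes named were chosen after their values were seen. Members, lists and rules were chosen with earlier results of these data known. Protein sequences were not analysed here, and the windows of some other members are not reported here. Alternatives covered the gene position, pseudogenes, TAD size, cluster gap, matching distance, the definitions of borders and counterparts, and the largest cluster.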

Additional observations from a re-analysis of the deposited data

How the results depend on the processing

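The lists limit these results, since replicates were pooled ahead of TAD calling, positions are known to 40 kb, and depth within a region is unknown. No paired analysis was possible because each culture has a single list made from both replicates, and for the same reason no replicate could be left out. Of 76 values from 18 alternatives, 58 stayed within the interval, 1.5 times the count or 1 bin of the reported value. Without cluster 2, the share of members and of cluster sequence outside TADs was 0% (reported 1.70% and 3.50%), the median TAD 1560 kb in both lists and the share of TADs with a counterpart 100%. That share was 66.7% as reported, 0% when both ends had to match exactly and 100% with a reciprocal overlap of 50%. Weighted by member or by length, the median TAD became 5040 kb (2D) and 4920 kb (3D) instead of 2040 and 2000 kb. With edges set halfway to the next gene, the median distance to a border became 36.8 kb (2D) and 32.3 kb (3D), instead of 87.2 and 85.8 kb. All members and cluster sequence outside TADs, the TAD without a counterpart and 222 of the 289 members inside TADs belong to cluster 2, which fixes the shifts without it and under weighting. All TADs with members differed between the lists at the left end, by 40 or 120 kb, and not at the right end. This fixes the shifts under exact matching and reciprocal overlap. Halfway edges lie further out than the outermost members, on the side of the outer borders. The distances at single halfway edges are not reported here.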

Other observations

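Receptor clusters also made up most of the other TADs with the highest numbers of genes, which were chosen after their values were seen. After the TAD of cluster 2, the next by protein-coding gene starts was a TAD of 1720 kb on chromosome 7 with 109 starts, 95 of them of Olfr genes, in both lists. A TAD of 2280 kb on chromosome 9 followed with 92 starts, 88 of them of Olfr genes, again in both lists. Another TAD of chromosome 7 held 84 starts in 2D and 82 in 3D, with 68 of Olfr genes in each. A TAD of chromosome 17 held 76 starts in 2D and 78 in 3D, with 49 of Olfr genes in each.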
